A study of Mus musculus with 11 samples.

Results

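Astrocytes sorted from the olfactory bulb (OB) were set against astrocytes sorted from the hippocampus (HC), cortex (CX) and brainstem (BS) as a single group. Membership followed the region in each label, which placed 3 OB samples on one side and 8 samples on the other (3 HC, 2 CX and 3 BS), 11 samples in all. Every sample came from Aldh1l1-eGFP mice on the C57BL/6 strain, 16 weeks old, of both sexes and with no treatment named. In these mice a bacterial artificial chromosome drives green fluorescent protein from the Aldh1l1 promoter, so that any cell with that promoter active could enter the sort, and all groups carry it. The eGFP-positive cells were isolated by fluorescence-activated sorting, and libraries were made from 5 ng of total RNA with depletion of ribosomal RNA. The sources used here do not say whether samples were separate mice or pools, so that p-values measure only the spread between these samples. Spread between replicates may be technical. In the pooled comparison the spread also holds the differences among HC, CX and BS, which adds to the error of genes uneven there.

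The olfactory bulb is the first relay of the sense of smell. Axons of olfactory sensory neurons enter its outer layer wrapped by olfactory ensheathing glia and end in glomeruli on mitral and tufted cells, whose output is shaped by local GABAergic interneurons. The adult bulb keeps receiving new interneurons, which arrive as neuroblasts along a stream that is bordered by astrocytes. Astrocytes in general take up glutamate and potassium, contact blood vessels with their endfeet and secrete factors that act on synapses. Tissue next to a ventricle can also hold choroid plexus, the epithelium that makes cerebrospinal fluid, and ciliated ependymal cells.

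Expression is given as the normalised read count, the number of reads of a gene divided by a size factor for its sample. OB 1, OB 2 and OB 3 held 4503269, 6080539 and 9425474 recovered reads, and the 11 samples ranged from 2830746 to 14151670. The ribosomal precursor Rn45s took 2.14% to 2.93% of reads in OB samples and 0.966% to 2.36% in HC samples, but 18.0% to 25.6% in BS and 19.0% to 20.7% in CX samples, and its part in the results was not tested. Of 30 astrocyte genes 0 were called in either direction by limma, edgeR or DESeq2 and 2 had an unadjusted p under 0.05. With limma 4.54% of all tested genes were called, so 0 of 30 is near that share and does not measure the purity of the sort. Over all tested genes 17.6% had an unadjusted p under 0.05, the background for each count at that p. Aldh1l1, whose promoter drives the reporter, had values of 974, 943 and 959.9 in the OB, and 542, 875 and 1317 were the lowest, median and highest of the 8 others (adjusted p = 0.8091, limma). The astrocyte transcription factor Sox9 had 1199, 1515 and 1861 in the OB and 1311 to 2695 elsewhere.

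The OB was marked by 354 genes that were higher and 276 that were lower than in the other regions, out of 13875 tested. The higher genes included those of olfactory ensheathing glia (Npy, Frzb and Mybpc1), of olfactory sensory neurons (Omp, Stoml3 and S100a5) and the interneuron factor Sp8. The lower genes were led by Ttr, the transthyretin carrier of thyroid hormone and retinol that choroid plexus makes in large amounts. Calls were made with limma on log2(value + 1) and required a Benjamini-Hochberg adjusted p under 0.05, more than 1.5-fold difference, and expression above 5 in 2 or more samples from the same region. Called genes were thus 2.55% of those tested for the higher direction, 1.99% for the lower and 4.54% for either, and the median log2 difference over all tested genes was 0.02. These shares are the background for each count of called list members below. Of the higher genes 196 exceeded 4-fold and 56 exceeded 16-fold, and of the lower genes 163 and 57 did. In 340 of the higher genes every OB sample lay above all 8 others, an order that 4.93% of all tested genes had. In 226 of the lower genes every OB sample lay below them, against 3.24% of all tested genes.

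The totals moved with single OB samples, of which only 3 were available. Without OB 1, OB 2 or OB 3, the higher genes numbered 167, 152 and 176 and the lower genes 154, 112 and 106. Higher genes made up 56.2% of the calls, against 40.6% with DESeq2 and 43.9% without the CX samples. When the OB had to differ from the HC, the CX and the BS separately, 188 genes (1.35%) were higher and 94 (0.677%) lower. The 188 became 115, 104 and 113 without OB 1, OB 2 and OB 3, and 91 and 115 without CX 1 and CX 2, and the 94 became 42 and 49 without CX 1 and CX 2. Pair by pair, 501 genes were higher and 484 lower than in the HC, 393 and 288 than in the CX, and 1007 and 1035 than in the BS, comparisons that share the OB samples.

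The 15 leading genes were the called genes with the largest positive differences among those that passed a rule. The rule asked for an OB mean of at least 50 and every OB sample above all 8 others. Reads in all 3 OB samples and ranges that do not meet thus follow from the rule. All but Mybpc1, described below, stayed at or below 27.4 elsewhere. Sp8 (GRCm38 chr12:118846329-118852576), a zinc finger factor of bulb interneurons, had values of 242, 278 and 271 in the OB, and the 8 other samples reached from 0 through a median of 0.457 to 4.6. The ranges did not meet, and the log2 difference was 7.12 (SE 0.71, adjusted p = 7.418e-05, limma). Clca3a1, a calcium-activated chloride channel regulator, had 619, 385 and 357 in the OB and at most 14.7 elsewhere, a log2 difference of 7.30 (SE 0.95, adjusted p = 0.0005297). Its close copy Clca3a2 had 29.3, 7.11 and 17.2 in the OB, and since reads of such near-identical genes may have been split between them both values are uncertain. Cdhr1, a cadherin-related protein of mitral and tufted cells, had 141, 471 and 125 against at most 3.65, with OB 2 the highest. Sphk1, which makes the lipid sphingosine-1-phosphate, had 122, 231 and 145 against at most 6.25.

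The other leading genes included a claudin and hormone receptors. Cldn19, a tight junction claudin, had values of 216, 134 and 187 in the OB and at most 6.39 in the other samples (log2 difference 5.86). Of 24 tight junction genes tested it alone was higher, while 2, Tjp3 and Cgn, were lower. The median log2 difference of that list was -0.41, and 2.55% and 1.99% of all tested genes were higher and lower. Gpr50, an orphan receptor related to the melatonin receptors, had 153, 137 and 147 against at most 8.01, and Trhr, a receptor of thyrotropin-releasing hormone, 85.8, 98.7 and 90.5 against at most 3.12. Neither receptor overlapped with the other regions, which the rule for leading genes required. The gene of that hormone, Trh, was itself higher, at 3.26, 54.5 and 35.0 in the OB with 1 read in the 8 other samples, a ratio of 298 (95% exact interval 52.6 to 11853). Alx4, a homeobox factor, stood at 194, 189 and 203 against at most 21.9, and Tex15, known from male germ cells, at 208, 232 and 252 against at most 15.3. Kctd12, an auxiliary subunit of GABA-B receptors that was chosen after its values were seen, was among the abundant ones, at 14067, 9004 and 10204 in the OB and 373, 786 and 1281 elsewhere.

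**Figure D1:**
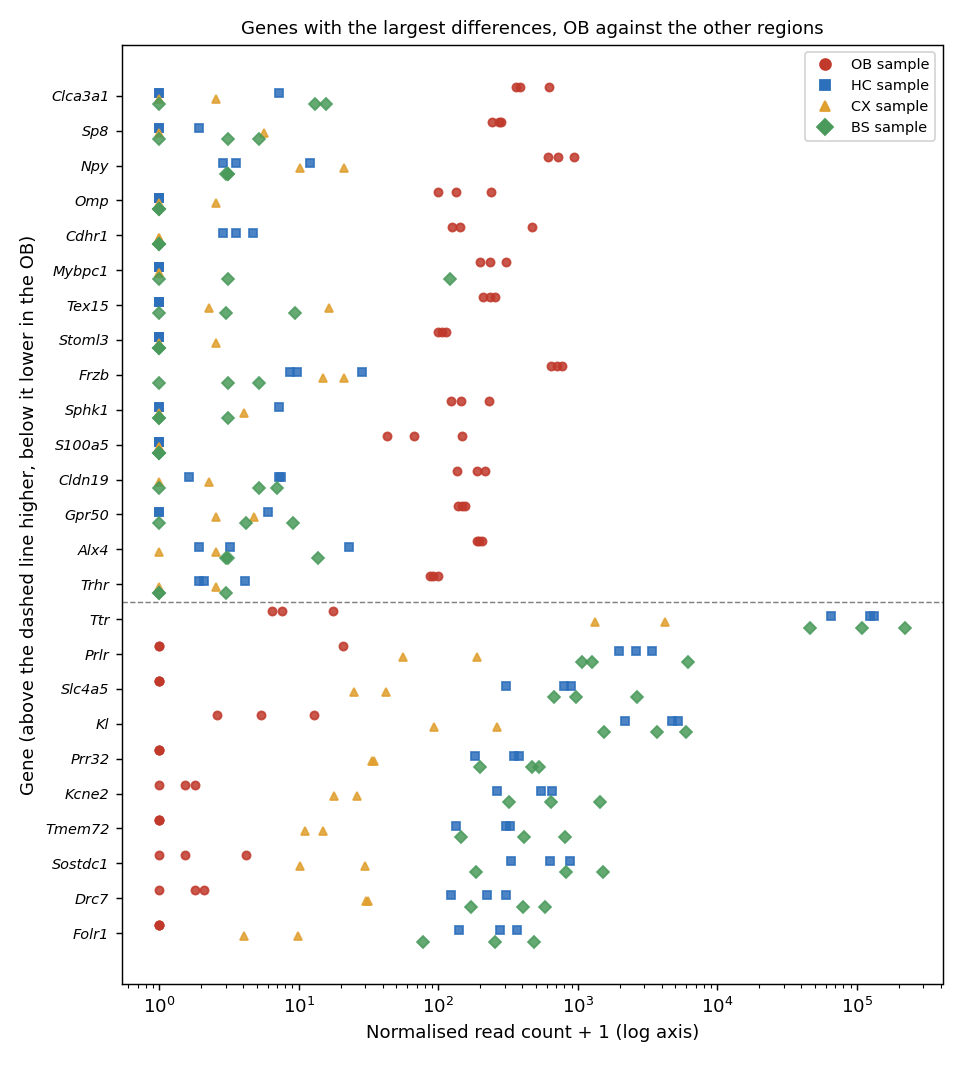
Normalised read count plus 1 (log axis) of the 15 called genes with the largest positive and the 10 with the most negative log2 difference, with a point for each of the 11 samples coloured by region. Genes were drawn only from those with a mean of at least 50 in the higher group and no overlap between OB and other samples. By that rule every OB point lies right of all others for the higher genes and left of all others for the lower genes. For the lower genes the CX points lie between the OB points and those of HC and BS.

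Markers of olfactory ensheathing glia rose in the OB. Of 12 tested, 10 were higher and 0 lower (2.55% of all genes were higher), and their median log2 difference was 3.81 against 0.02 for all genes. Npy (GRCm38 chr6:49822710-49829507), the neuropeptide Y gene, had values of 936, 607 and 719.6 in the OB and 1.87, 2.34 and 20.1 as the lowest, median and highest elsewhere (log2 difference 7.09, SE 0.65, adjusted p = 3.745e-05, limma). Frzb, a secreted Wnt antagonist, had 767, 642 and 712 against 0, 8.22 and 27.4. Neither gene overlapped between the groups, which the rule for leading genes required. Fabp7, a brain fatty acid binding protein of radial glia, astrocytes and ensheathing glia that was singled out after its values were seen, had 16510.1, 12292 and 14279 in the OB and 381, 1058 and 1282 elsewhere (log2 difference 4.02, adjusted p = 9.458e-06). Its OB samples also lay above every other sample.

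Transcription factors and receptors of the same list moved with it. Foxd3, a neural crest factor, had 40.2, 40.3 and 63.6 against at most 10.5, and Sox10, which specifies neural crest glia and the oligodendrocyte lineage, had 168, 206 and 213 against 18.7, 53.1 and 139. Erbb3, a neuregulin receptor, had a log2 difference of 3.60, Ngfr, the low-affinity neurotrophin receptor, 2.78, and Cdh19, a cadherin of the Schwann cell lineage, 1.53. Mybpc1, a myosin-binding protein, had 306, 234 and 197 in the OB, and of the 8 others BS 3 alone was high, at 120.0. Prss56, a serine protease, had 18.5, 41.8 and 26.4 in the OB and overlapped with CX 2 alone, at 24.5. The summed level of the list was 19514 to 25656 in the OB and 4489.8 to 17286 elsewhere. Without OB 1, OB 2 or OB 3 the list gave 6, 5 and 5 higher genes, and 7 were higher than in each region. In a bulk sample, more cells of a type and more RNA of these genes in each cell cannot be told apart.

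Genes of olfactory sensory neurons, whose cell bodies lie in the nose, were also read in the OB. Omp (GRCm38 chr7:98143359-98145502), the olfactory marker protein, had values of 239, 133 and 98.6, with 1 read in the 8 other samples, a ratio of 1242 (95% exact interval 222 to 49133). Stoml3, a stomatin of olfactory cilia, had 112, 97.9 and 104, again with 1 read elsewhere, a ratio of 916 (95% exact interval 163 to 36248). S100a5, a calcium-binding protein of these neurons, had 147, 66.3 and 42.0 and no read elsewhere, at least 215-fold higher by a floor of 3 reads over the group. These intervals and floors cover counting error only. Of 12 markers tested, 5 were higher (2.55% of all genes were higher) and 1, the adhesion gene Ncam2, was lower, with a median log2 difference of 0.41. Among the 5 is Calb2, which the interneuron list also holds and which is counted in each. The signalling genes were split, since the G protein gamma subunit Gng13 was higher, at 64.1, 27.6 and 23.2 against at most 4.37, whereas the olfactory alpha subunit Gnal had 202, 224 and 83.5 against 76.3 to 351 (adjusted p = 0.7065). Gap43, of growing axons, had 23.9, 52.9 and 27.5 against 23.5 to 139.5 (adjusted p = 0.5418). The count of higher markers was 4, 4 and 4 without OB 1, OB 2 and OB 3.

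Interneuron markers were higher in the OB as well. Of 17 tested, 11 were higher and 0 lower, with a median log2 difference of 3.21. They were Sp8, Gng4, Th, Dlx5, Dlx1, Eomes, Gad1, Dlx2, Synpr, Calb2 and Gad2. Eomes, a factor best known from glutamatergic bulb neurons, is in both this list and that of mitral and tufted cells, and is counted in each. Gad1, the main GABA-synthesising enzyme, had values of 473, 361 and 301 in the OB against 14.6, 29.1 and 67.3 (log2 difference 3.48, adjusted p = 0.0003074, limma), with no overlap. Th, the rate-limiting enzyme of dopamine synthesis, had 26.1, 66.3 and 13.5 against at most 20.03 and did overlap. Its call was lost with edgeR (adjusted p = 0.08968 with TMM factors) and DESeq2 (0.3975). Dlx5, a homeobox factor of GABAergic neurons, had 29.3, 48.9 and 8.08 against at most 2.5, and Dlx1, of the same family, 38.0, 47.4 and 27.5 against at most 12.3. Not called were Meis2 (886, 808 and 789.7 against 229 to 789, adjusted p = 0.07211), Slc32a1, Penk, Tshz1, Calb1 and Pvalb. Of these markers, 4, 4 and 5 were higher without OB 1, OB 2 and OB 3, and 5 were higher than in each region separately.

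Of 15 neuroblast markers tested, 6 were higher and 0 lower (median log2 difference 1.43), of which Dlx1, Dlx2 and Dlx5 are shared with the interneuron list. Dcx, the microtubule protein doublecortin of migrating neuroblasts, had 415, 363 and 268 in the OB against 9.46, 17.4 and 47.5 elsewhere (log2 difference 3.97, adjusted p = 0.000282, limma). Robo2 and Dpysl3 were the others, and 2, 2 and 3 were higher without OB 1, OB 2 and OB 3. Of 18 markers shared by all neurons 0 were higher, and the neurofilament Nefl was lower, at 36.9, 31.6 and 32.3 against 61.3, 179 and 490.4 (adjusted p = 0.02011, limma). Of 7 mitral and tufted cell markers tested, Cdhr1 and Eomes were higher, and 1 of them without any single OB sample. Slc17a7, the vesicular glutamate transporter of these cells, had 56.5, 163 and 61.9 against 10.5 to 219 and was not called. Of 11 markers of neural stem and dividing cells 0 were called with limma or edgeR, 2 had an unadjusted p under 0.05, and DESeq2 called 1, Thbs4. In all, 29 of the 354 higher genes are in the marker lists of bulb cell types, and the part of such cells in the other higher genes was not tested.

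**Figure D2:**
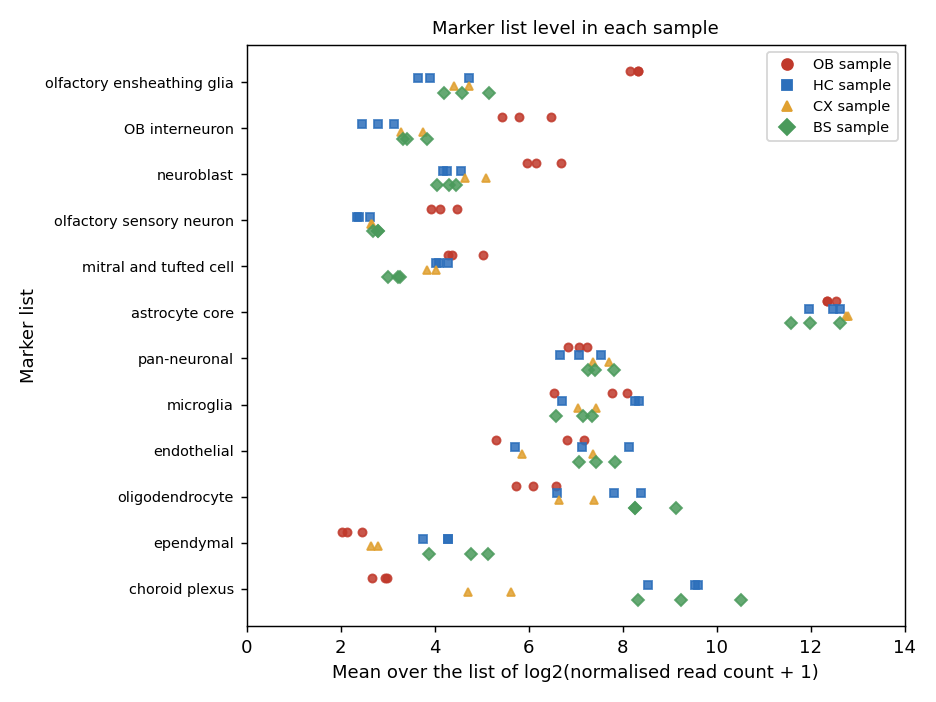
Mean over each marker list of log2(normalised read count + 1), with a point for each sample coloured by region. The OB points of ensheathing glia (8.16 to 8.33) lie right of all others (3.65 to 5.17), those of choroid plexus (2.68 to 2.99) lie left of all others (4.71 to 10.5), and the astrocyte core, pan-neuronal, microglial and endothelial levels overlap.

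Forebrain patterning factors formed a further group with higher genes. Of 33 tested, 9 were higher and 2 lower, with a median log2 difference of 1.15. Among all tested genes 2.55% were higher and 1.99% lower. Besides Sp8, the Dlx genes and Eomes, which the interneuron list also holds, the higher ones included Tshz2 and Etv1. Tshz2, a teashirt zinc finger factor, had 961, 1097 and 894 against 100.2, 205 and 271 (log2 difference 2.39, adjusted p = 0.0001285, limma), and Etv1, an ETS factor, had 1478, 1377 and 1408 against 462, 754 and 1002. Neither overlapped. The lower ones were Otx2, also a choroid plexus marker, and Nr2f1, an orphan nuclear receptor of cortical area patterning, at 58.6, 50.5 and 99.1 against 142, 307 and 465.8. The count of higher factors was 3, 3 and 4 without OB 1, OB 2 and OB 3, and 5 without the HC samples. Only 3 of the 9 were higher than in each region separately. As a mean log2 level, the list stood at 4.83 to 4.99 for OB samples. CX samples (4.51 to 4.72) and HC samples (4.39 to 4.65) came close to it, whereas BS samples (2.79 to 2.99) lay furthest below. The pooled difference of this list is thus largest against the BS and small against the other forebrain regions.

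ACAAAG, the core letters bound by Sox factors, were searched on both strands in the 250 bases before the start of each gene in the RefSeq promoters of GRCm38.p6. They were found in 32 of 261 promoters of higher genes (12.3%), 12.1% of those of lower genes, 11.9% of all tested genes and 16.5% of all promoters, so that the share was near the background. The palindromic site of the Ebf factors of olfactory neurons was found in 1.92%, 0.503%, 0.933% and 0.788% in the same order. A match is a description of these letters and not a binding site. The matched promoters of 3 higher genes are shown, with ACAAAG or its reverse complement CTTTGT in capitals, to give the context of the letters. They are those with the largest log2 difference among the matched genes with an OB mean of at least 50. Stoml3, the stomatin-like protein of olfactory cilia described above, has its window at chr3:53488457-53488706 on the plus strand, with 2 matches. 1110015O18Rik, which is known by its clone name alone, had values of 205, 118 and 125 in the OB and at most 80.1 elsewhere, and its window lies at chr3:4798458-4798707 on the plus strand. Rprm, reprimo, a p53 target in cell cycle arrest, had 74.9, 46.6 and 67.9 against at most 30.7, and its window lies at chr2:54085553-54085802 on the minus strand. The first match begins 124, 135 and 177 bases before the start, and all 3 genes separated the OB from every other sample.
Stoml3: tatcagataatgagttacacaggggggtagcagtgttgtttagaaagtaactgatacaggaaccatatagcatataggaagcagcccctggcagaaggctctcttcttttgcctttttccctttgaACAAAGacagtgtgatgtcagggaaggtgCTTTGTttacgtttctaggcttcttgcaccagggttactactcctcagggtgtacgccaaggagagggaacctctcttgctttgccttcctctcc
1110015O18Rik: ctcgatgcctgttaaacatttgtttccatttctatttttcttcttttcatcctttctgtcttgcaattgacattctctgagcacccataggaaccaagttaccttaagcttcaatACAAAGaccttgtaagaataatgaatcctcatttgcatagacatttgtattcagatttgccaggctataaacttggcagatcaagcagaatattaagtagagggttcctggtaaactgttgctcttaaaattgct
Rprm: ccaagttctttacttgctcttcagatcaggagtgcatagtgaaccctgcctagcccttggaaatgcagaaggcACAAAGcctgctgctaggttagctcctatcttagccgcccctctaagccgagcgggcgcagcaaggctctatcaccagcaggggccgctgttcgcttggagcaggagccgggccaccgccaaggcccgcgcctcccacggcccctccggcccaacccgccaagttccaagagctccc

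The 39 Hox genes, which pattern the hindbrain and spinal cord, had 1 read in the 3 OB samples together, 0 in the HC and CX and 388 in the BS. Of them 6 were tested, with a median log2 difference of -1.64, and 0 were called with limma, edgeR or DESeq2 or had an unadjusted p under 0.05. Hoxa2, for example, had no read in the OB, HC or CX and a mean of 43.4 in the BS. Of 19 midbrain, hindbrain and ventral factors tested, 0 were higher and 1 was lower, with a median of -1.64. The lower gene was Lmx1a, a factor of the roof plate and of dopaminergic neurons, with no read in the OB and 4.6, 34.9 and 128 as the lowest, median and highest elsewhere, at least 60.4-fold lower in the OB (adjusted p = 0.002784, limma). Unlike the Hox genes it was read in HC and CX samples, with an HC mean of 30.3, a CX mean of 8.58 and a BS mean of 106. Its correlation with the mean log2 level of the choroid plexus markers was 0.83 over the 8 other samples and 0.30 over the 6 HC and BS samples.

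Cadherin and matrix genes were among those higher in the OB. Of 38 cadherins tested, 7 were higher and 0 lower (median log2 difference 0.63), and of 50 collagen, laminin and basement membrane genes 8 were higher and 1 lower (median 0.38). Among all tested genes 2.55% were higher and 1.99% lower. Fat4, an atypical cadherin of planar polarity, had values of 1432, 1130.5 and 1417 in the OB against 387, 436 and 679 (log2 difference 1.51, adjusted p = 0.0003146, limma). Cdh4, known as R-cadherin, had 798, 837 and 858 against 5.26, 104 and 265, but its call was lost without OB 1, OB 2 or OB 3 (adjusted p from 0.1482 to 0.1688, limma). Neither overlapped. Among the collagens, Col11a1, a fibrillar collagen, had 267, 182 and 230.0 against 3.77, 25.4 and 44.8, and Col12a1, which associates with fibrils, 453, 516 and 311 against 12.5, 35.9 and 148. Col28a1 had 27.1, 23.7 and 15.1 with 3 reads elsewhere, a ratio of 60.2 (95% exact interval 19.9 to 298). Without OB 1, OB 2 or OB 3, 2, 2 and 2 cadherins and 4, 4 and 5 matrix genes were higher, and 3 cadherins without the HC samples. Of 22 integrins tested, 0 were called with limma or edgeR, 2 had an unadjusted p under 0.05 and DESeq2 called 3 (Itga3, Itgav and Itgb6).

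Guidance cues and receptors had large differences at single genes. Sema5a (GRCm38 chr15:32244810-32696341), a transmembrane semaphorin, had values of 3213, 2908 and 2439.6 in the OB against 146, 237 and 345, a log2 difference of 3.55 (SE 0.25, adjusted p = 5.525e-06, limma). It was 1 of 3 higher genes among 30 semaphorins, plexins and neuropilins (10%, against 2.55% of all tested genes). The others were Sema3d and Sema5b, and 0 were lower (median log2 difference 0.12). Robo2, a receptor of Slit proteins, had 1392, 1663 and 1560.0 against 223, 383 and 491. Of 20 Slit, Robo and netrin genes 4 were higher, namely Robo2, Ntng1, Unc5d and Unc5c, while the netrin receptor Unc5b was lower (median 0.25). The 4 became 1, 1 and 1 without OB 1, OB 2 and OB 3, and 2 without HC 3, BS 2 or BS 3. Efna5 and Efnb2, ligands of Eph receptors, were the 2 called of 19 ephrin and Eph genes (3 without OB 3, CX 1 or BS 1 and 4 without CX 2), and Efna5 had 631, 349 and 605 against 17.2, 72.3 and 131. Sema5a, Robo2 and Efna5 did not overlap with the other regions.

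**Figure D3:**
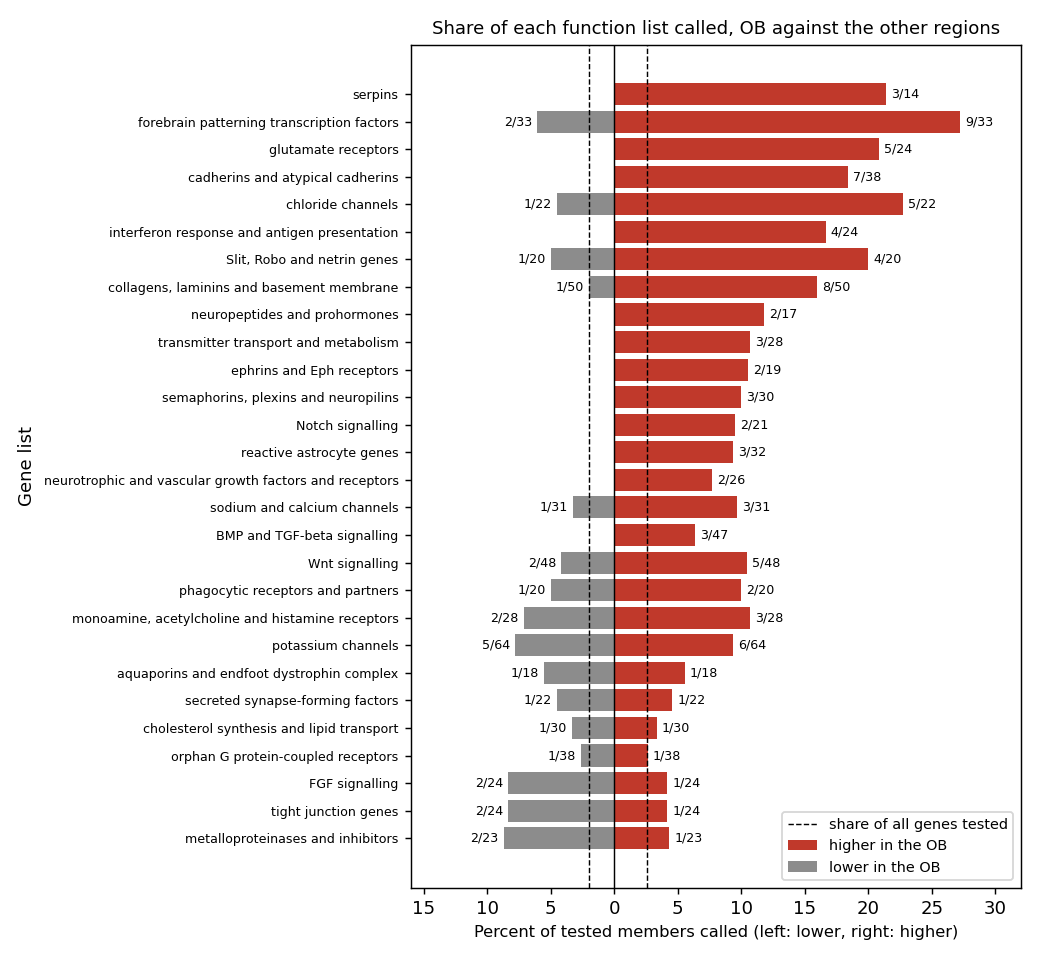
Percent of tested members of each function list called higher (right) or lower (left) in the OB, for lists with at least 10 tested members and 2 called, with the numbers called and tested beside each bar. The dashed lines mark the shares among all tested genes, 2.55% higher and 1.99% lower, and forebrain factors, chloride channels, serpins and glutamate receptors have the longest bars to the right.

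Among glutamate receptors, AMPA, kainate and NMDA receptor subunits were higher in the OB. Of 24 genes tested, 5 were higher and 0 lower, with a median log2 difference of 1.15. Gria1, Gria2 and Gria3 encode AMPA receptor subunits, Grik3 a kainate and Grin3a an NMDA receptor subunit. Gria3 had values of 621, 619 and 385 in the OB against 59.1, 120.0 and 172 (log2 difference 2.14, adjusted p = 0.0007078, limma). Grin3a had 1674, 1799 and 1835 against 279, 473 and 1182, and Gria2 2309, 2943 and 2412 against 329, 926 and 1401. These 3 did not overlap with the other regions. Grik3 had 522, 409 and 395 against 4.77, 35.3 and 120.2, and its adjusted p was 0.06124, 0.05554 and 0.05181 (limma) without OB 1, OB 2 and OB 3. Gria1 had 4010.2, 3964 and 3943 in the OB and 3259 in the highest BS sample. Its call was lost with edgeR (adjusted p = 0.1044 with TMM factors), with DESeq2 (0.1087) and without any single OB or HC sample. All 5 genes, however, were higher than in each region separately. For Gria1 the adjusted p was then 4.24e-06 against the HC, 1.17e-05 against the CX and 0.0208 against the BS (limma). Without OB 1, OB 2 or OB 3, 2, 2 and 2 of the list were higher.

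Transmitter handling differed at a few genes. Of 28 transport and synthesis genes for glutamate, GABA, glycine and serine, 3 were higher and 0 lower (median log2 difference 0.44), and 1, 1 and 1 without OB 1, OB 2 and OB 3. Slc6a11, the astrocytic GABA transporter GAT-3, had values of 26319, 26056 and 32499 in the OB against 3232, 6809 and 20819, a log2 difference of 1.98 (adjusted p = 0.01625, limma), but its adjusted p lay between 0.06989 and 0.1039 when an OB sample was left out. Against each region separately Slc6a11 was higher, with an adjusted p of 8.71e-05 for the HC, 0.00339 for the CX and 0.0163 for the BS (limma). The other higher members were Gad1 and Gad2. Slc1a2, the main glutamate transporter, had 169532, 162749 and 199406 against 61764 to 541892 (adjusted p = 0.8497), and Glul, glutamine synthetase, had 44189, 42567 and 48329.8 against 9829.7 to 45360.5. Neither was called. Of 20 GABA and glycine receptor genes 1 was higher (5%, against 2.55% of all tested genes), and 1 call in a short list does not set it apart. It was the glycine receptor subunit Glra4, with 52.1, 26.1 and 15.6 against 2 reads elsewhere, a ratio of 119.6 (95% exact interval 32.3 to 1000.0).

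Channels moved in both directions. Of 64 potassium channel genes tested, 6 were higher and 5 lower (median log2 difference 0.48). The higher ones were Kcnn4, Kcnb2, Kcna4, Kcnd3, Kcnc1 and Kcnj3, and the lower ones included Kcne2, Kcnj13, Kcnq3 and Kcnh1, of which Kcne2 and Kcnj13 are also in the choroid plexus list. Kcnd3, a subunit of A-type channels, had values of 1016, 1006 and 1195 in the OB against 100.5, 163 and 250.4, and Kcnq3, of the M current, 7.6, 29.2 and 10.2 against 81.8, 156 and 218. Both separated the OB from all other samples. Kcnj10, the inward rectifier that carries astrocytic potassium uptake, had 32855, 26678 and 34048 against 7653 to 41742 (adjusted p = 0.2126, limma) and was not called. Without OB 1, OB 2 or OB 3, 3, 1 and 5 potassium channels were higher and 4, 3 and 2 lower, and 9 were higher without BS 2.

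Of 22 chloride channel genes, 5 were higher (Clca3a1, Clca3a2, Ano1, Clcn2 and Lrrc8d) and 1, Best3, was lower, with a median log2 difference of 0.44. Ano1, a calcium-activated channel, had 129, 163 and 151 in the OB against 3.67, 18.0 and 65.0, and Lrrc8d, a subunit of the volume-regulated channel, 289, 279 and 262 against 72.9, 106 and 179.8. Neither overlapped, and 3, 3 and 3 chloride channels were higher without OB 1, OB 2 and OB 3. Of 31 sodium and calcium channel genes 3 were higher and 1 lower (median 0.56), and Cacna1d, an L-type subunit, had 422, 332 and 304 against 23.8, 73.0 and 107. Among monoamine, acetylcholine and histamine receptors, 3 of 28 were higher, Htr1f, Chrna3 and Htr2a, and 2 were lower, Chrna4 and Htr2c, the serotonin receptor abundant in choroid plexus. The 3 became 2, 1 and 1 without OB 1, OB 2 and OB 3 and 5 without BS 3. Of 10 connexins and pannexins 0 were called with limma or edgeR, 4 had an unadjusted p under 0.05 (17.6% of all tested genes did) and DESeq2 called 1, Gjc3. Gja1, the astrocytic connexin 43, had 3674, 4708 and 4893 against 2277 to 5494.

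Growth factor and patterning pathways differed at single members. Igf1, insulin-like growth factor 1, had values of 385, 532 and 457 in the OB against 28.0, 62.6 and 88.3 (log2 difference 3.02, adjusted p = 0.0001077, limma), with no overlap, while its receptor Igf1r was lower, at 597, 547 and 464 against 711, 906 and 1155. Of 9 insulin-like growth factor and binding protein genes tested, Igf1 alone was higher and 2, Igf1r and Igf2, were lower. The log2 difference of Igf2 lay between -3.09 and -2.50 when 1 sample was left out. Of 48 Wnt pathway genes 5 were higher and 2 lower (median log2 difference 0.06), and 3, 2 and 3 were higher without OB 1, OB 2 and OB 3. The higher ones were Frzb, Lgr5, Nkd2, Wnt6 and Wnt7a. Lgr5, an R-spondin receptor, had 103, 158 and 86.7 against at most 32.6, reached in the BS, and the ligand Wnt7a had 392.01, 469 and 484 against 78.7, 142 and 264. Of 47 BMP and TGF-beta genes 3 were higher (6.38%), namely Ltbp2, Inhba and Id3, and 1, 2 and 1 without OB 1, OB 2 and OB 3. Of 21 Notch genes 2 were higher (9.52%), Hey2 and Dner. In both lists 0 were lower, and 2.55% of all tested genes were higher. Hey2, a Notch target, had 556, 362 and 410.5 against 65.9, 81.2 and 142, and it alone was called without any single OB or HC sample or without BS 1. Of 13 Hedgehog and 15 retinoic acid genes tested, 0 were called with limma or edgeR, and DESeq2 called 1 and 3. An unadjusted p under 0.05 was reached by 2 and 6, against 17.6% of all tested genes. The 3 retinoic acid genes were Cyp26b1, Dhrs3 and Rdh5, and the median log2 difference of that list was -0.04. Its summed value was 1565 to 1683 in the OB and 1957 to 10187 elsewhere. The log2 difference of Cyp26b1 lay between -6.12 and -4.96 when 1 sample was left out.

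Engulfment, protease inhibitor and reactive genes held further abundant members. Adgrb1, also called BAI1, an adhesion receptor in the engulfment of apoptotic cells, had values of 8091, 6387 and 8838 in the OB against 497, 696 and 1595 (log2 difference 3.37, SE 0.30, adjusted p = 3.321e-05, limma). Its partner Elmo2 had a log2 difference of 1.08, and Gas6, the ligand of the TAM phagocytic receptors, was lower, at 286, 266 and 222 against 615, 895 and 1489.7. Of 14 serpins 3 were higher, and Serpinf1, pigment epithelium-derived factor, had 982, 692 and 842 against 20.03, 80.6 and 119. Of 32 reactive astrocyte genes 3 were higher (9.38%, against 2.55% of all tested genes) and 0 lower, with a median log2 difference of 0.43. The 3 were Sphk1, Serpina3n and Vim. Vim, the intermediate filament vimentin, had 1333, 1058 and 1123 against 176, 368 and 680.2, whereas Gfap, the astrocytic filament, had 4028, 3168 and 3321 against 889 to 3976 and was not called (adjusted p = 0.3025). Of 24 interferon and antigen presentation genes 4 were higher (among them Ifit1, Ifit3 and H2-K1), each of these highest in OB 1. Ifit1, an interferon-induced RNA-binding protein, had 329, 130.3 and 99.7 against at most 96.2. The 4 became 0, 0 and 2 without OB 1, OB 2 and OB 3, 1 without HC 3 and 2 without HC 2 or BS 2.

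Choroid plexus genes were lower in the OB. Of 20 markers tested, 15 were lower and 0 higher (1.99% of all genes were lower), with a median log2 difference of -5.21. Ttr had values of 6.52, 16.6 and 5.39 in the OB and 1323, 86902 and 221911 as the lowest, median and highest elsewhere (log2 difference -12.05, SE 1.29, adjusted p = 0.0001285, limma). Slc4a5, a bicarbonate transporter of the epithelium, had no read in the OB and 23.9, 734 and 2669 elsewhere, at least 1123-fold lower. Kl, which encodes the FGF co-receptor klotho, had 4.34, 1.58 and 11.9 against 92.0, 2939 and 5981. None of the 3 overlapped, which the rule for leading genes required. The list was not uniform, since Aqp1, a water channel, had 162, 135 and 209 against 2.51 to 399 (adjusted p = 0.6753) and Enpp2, autotaxin, 2744, 2298 and 2549 against 1619 to 121680.0 (adjusted p = 0.1132).

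The level of this list differed among the other regions as well. Its summed value was 2608 to 3164 in the OB, 3559 to 8779 in CX samples, 108987 to 226101 in HC samples and 78862 to 377375 in BS samples. Relative to the CX alone, the log2 difference of Ttr was -7.96 and that of Slc4a5 -5.02. Of 18 ependymal markers 4 were lower and 0 higher (median log2 difference -1.83), and 2, 2 and 1 were lower without OB 1, OB 2 and OB 3. Their summed value was 179.9 to 261 in the OB and 207 to 1925 elsewhere. Spag6, of the ciliary axoneme, had 1 read in the OB and 7.67, 68.7 and 176 elsewhere, a ratio of 349 (95% exact interval 62.5 to 13803), whereas Foxj1, the regulator of motile cilia, had 35.8, 68.7 and 26.4 against 7.54 to 319.6 and was not called. Across the 8 other samples, 91 of the 276 lower genes (33.0%) had a Pearson r over 0.8 with the mean log2 level of the choroid plexus markers, against 5.27% of all tested genes and 0.565% of the higher genes. Of the 261 lower genes outside that list, 76 did. Over the 6 HC and BS samples alone, which leaves out the lower level of the CX, the shares were 25.7%, 5.64% and 2.54%. These are descriptions, since the genes were called on the same samples and share their libraries.

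Oligodendrocyte genes were lower by a smaller factor. Of 15 tested, 10 were lower and 0 higher (median log2 difference -1.98). Mbp, myelin basic protein, had values of 8301, 6602 and 3846 in the OB against 12396, 27198 and 65569, and Ermn, ermin of the myelin sheath, 109.7, 171 and 37.2 against 273, 713 and 1650.1 (log2 difference -2.81, adjusted p = 0.008783, limma). Neither overlapped, and OB 3 was the lowest sample for both. The count was 5, 2 and 1 without OB 1, OB 2 and OB 3 and 6 without the BS samples, and 0 of these genes were lower than in each region separately. Of 12 markers of oligodendrocyte precursors 2 were higher, Matn4 and Sox10, and 0, 0 and 0 without OB 1, OB 2 and OB 3. Of 17 microglial, 7 macrophage and blood, 16 endothelial and 11 pericyte markers 0 were called with limma, edgeR or DESeq2, and 0, 1, 2 and 1 had an unadjusted p under 0.05. Csf1r, the microglial colony-stimulating factor receptor, had 829.6, 898 and 290.3 against 373 to 1466, with OB 3 the lowest of all samples.

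Some genes that were lower in the OB were well above it in the CX too, where choroid plexus markers were low. They were chosen after their values were seen, from the 94 genes lower than in each region separately. Rph3a, an effector of synaptic vesicle Rab proteins, had values of 44.5, 26.8 and 14.5 in the OB against 121, 374 and 570.4 (log2 difference -3.67, SE 0.41, adjusted p = 0.0001642, limma), with a CX mean of 453. Plagl1, an imprinted zinc finger factor, had 17.4, 36.3 and 24.8 against 202, 285 and 808, and Hsd11b1, which regenerates active glucocorticoid, 131, 71.8 and 128 against 470.4, 619 and 928. None overlapped. Prelp, a matrix proteoglycan, had 236, 311 and 291 against 721, 1603 and 2028, and Maob, the astrocytic monoamine oxidase B, 357, 373 and 487 against 593, 989.9 and 1132. Prox1, a homeobox factor of dentate granule cells and other lineages, had 21.7, 7.89 and 30.2 against 72.1, 158 and 339. Of 8 thyroid hormone genes 2 were lower, among them the transporter Slco1c1, and 1, 1 and 1 without OB 1, OB 2 and OB 3. Slco1c1 had 334, 400.3 and 163 against 539, 1231 and 1393.

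**Figure D4:**
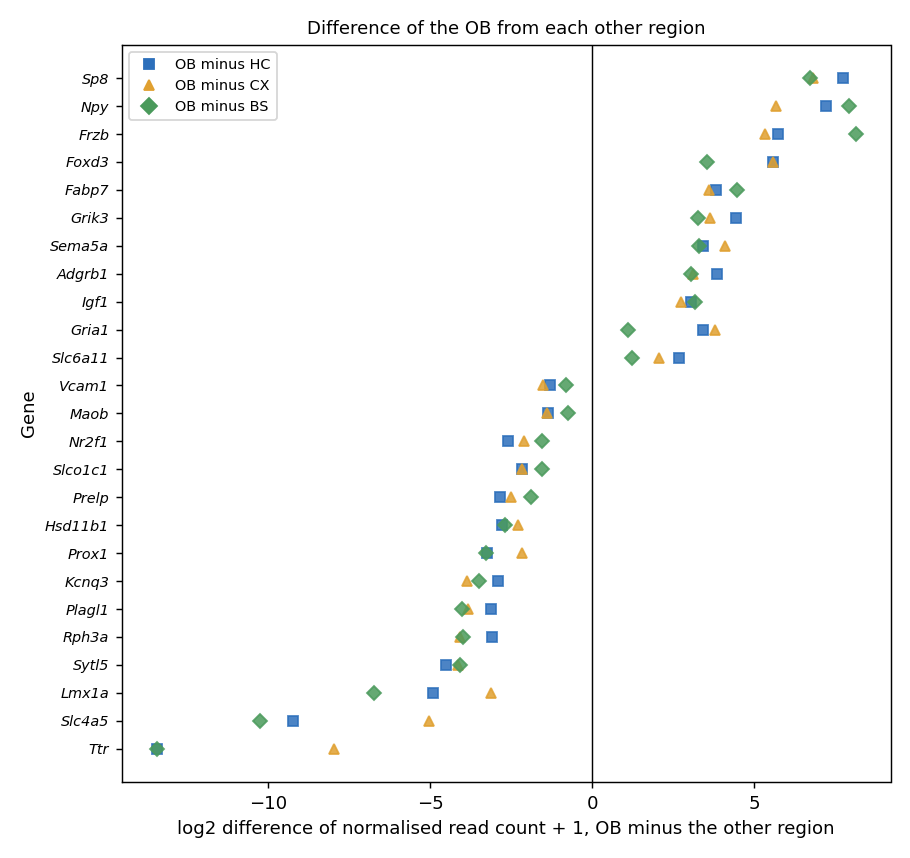
log2 difference of OB minus HC, OB minus CX and OB minus BS for 25 genes named in the text, with a symbol for each pair of regions. For Sp8, Npy, Fabp7, Sema5a and Adgrb1 all 3 symbols lie right of 0, for Rph3a and Plagl1 all 3 lie left of 0 between -4.07 and -3.08, and for Ttr and Slc4a5 the difference from the CX (-7.96 and -5.02) is smaller in size than those from HC and BS.

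Presence and absence were counted with a floor of 3 reads. In the OB alone, 45 genes had 3 or more reads in each sample with fewer than 3 in each of the 8 others. They included Omp, Stoml3, S100a5, Trh, Glra4 and Chrna3 named above, Scgn and Dlx6 of interneurons, the BMP and activin antagonist Fst and the olfactory receptor gene Olfr32. Conversely, 225 genes had fewer than 3 reads in each OB sample and 3 or more in each sample of at least 1 other region. Of the 225, 150 were read throughout the HC, 59 throughout the CX, 119 throughout the BS and 19 throughout all 3. Among the 19 were Slc4a5, Kcne2, Tmem72, Trpv4, Calml4 and Steap1 of the choroid plexus list, Spag6 and Drc7 of motile cilia, the myelin gene Hapln2, and Lmx1a. Genes read throughout the BS alone numbered 47, with Hoxa2, Hoxa5, Irx2, Irx5, En2 and Pax3, factors that pattern the neural tube, among them. The genes listed here were picked for their known roles after the counts were seen. These counts depend on depth and on the number of samples, since the rule must hold in each sample and leaving out a sample loosens it. Thus 73, 74 and 68 genes were read in the OB alone without OB 1, OB 2 and OB 3. Without CX 1, 361 genes were not read in the OB.

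Few calls were made among ribosomal protein, metabolic, complement and purinergic genes. Since 4.54% of all tested genes were called, 0 calls in a short list do not show equal levels. Of 76 cytosolic ribosomal protein, 25 glycolysis and lactate, 17 complement and 16 purinergic genes tested, 0 were called with limma or edgeR. An unadjusted p under 0.05 was reached by 13, 8, 3 and 1 of them and by 17.6% of all tested genes, and DESeq2 called 0, 3, 0 and 1. Of 79 nuclear-encoded respiratory chain genes 1, Cox8b, was lower. Aldoc, the brain aldolase of astrocytes, had values of 22647, 19694 and 21921 in the OB against 14924 to 33364, and Aqp4, the endfoot water channel, 12440.2, 11807 and 13521 against 5077 to 20767 (adjusted p = 0.6835, limma). Both lay within the range of the other regions.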

How the data were processed

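RNA sequencing of eGFP-positive cells was analysed from the deposited table of 24421 entries for 11 samples. According to the sources, the authors aligned reads to mm10 with STAR 2.5.0a and normalised with DESeq2 1.20.0. The deposited signal is reads divided by 1 size factor for each sample, made by the authors, and 100% of the values returned whole reads (tolerance 0.01). Count matrices were built over UCSC transcripts with Rsamtools and GenomicFeatures, and whether strand was used is not given in the sources used here. OB samples were compared with the 8 others by limma 3.58.1 (R 4.3.3) with a mean-variance trend on log2(value + 1), for 13875 genes past edgeR's filter on recovered reads. The p-values were two-sided and adjusted by Benjamini-Hochberg over all of them. Calling was also tried on a simulation of 3 OB against 8 other samples. Unlike the data, it held no differences among HC, CX and BS, so its recovery may be higher than in the data. Of 50 genes given a true log2 change of 1, 13 were called in the right direction. At changes of 2, 3 and 4, 35, 40 and 44 of 50 were. A gene that was not called can therefore still differ. Alternatives were edgeR 4.0.16, DESeq2 1.42.0, other pseudocounts and filters, a mean for each region, a replicate block and left-out samples. Gene lists (66, of which 15 held no call) described the calls by counts and medians. The text names 15 higher and 10 lower leading genes, up to 4 called members of each list (3 with the highest mean where none was called) and set astrocyte genes. Leading genes had the largest differences among called genes with no overlap and a mean of at least 50 in the higher group. Members, lists and motifs were chosen with earlier results of these data known, and a few other genes after their values were seen. Gene coordinates are from GENCODE and promoters from RefSeq, both on GRCm38. Entries whose names had been turned into dates were not named. Some genes are not reported here.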

Additional observations from a re-analysis of the deposited data

Results flagged for a closer look

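In a group of 4 to 10 samples, a value was picked out where its gap to the nearest other sample, divided by the range of the group, exceeded the Dixon critical value of 0.526 for 8 samples. Chance picks out about 1 in 20 groups, and 40 values were examined. Omp in CX replicate 2, at 1.53, and Stoml3 in CX replicate 2, at 1.53, were the only non-zero values among the 8 samples outside the OB, and each was 1 read. Mybpc1 in BS replicate 3 stood at 120, with a gap of 0.764 of the range, against 197 in the lowest OB sample.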

How the results depend on the processing

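The 354 genes higher in the OB became 665 with a mean for each region, 576 at an unadjusted p under 0.01, and 188 against each region separately. The 276 genes lower in the OB became 714 with DESeq2, 629 with a mean for each region, 172 without the HC samples, 600 without the CX samples, 540 at the unadjusted p, and 94 against each region. The 94 became 57 with no mean-variance trend and 143 at the unadjusted p. The following list counts are of genes higher in the OB unless said otherwise. With a mean for each region, forebrain factors (9) became 18, Wnt genes (5) 8, glutamate receptors (5) 8, and potassium channels 13 higher (6) and 9 lower (5). With no mean-variance trend, cadherins (7) became 4, glutamate receptors 3, lower potassium channels 3, and lower oligodendrocyte markers (10) 3. Against each region separately, forebrain factors became 3, interneuron markers (11) 5, neuroblast markers (6) 2, cadherins 3, collagens and laminins (8) 5, Wnt genes 3, lower potassium channels 3 and lower oligodendrocyte markers 0. At the unadjusted p, 11 potassium channels were higher and 8 lower, and DESeq2 called 8 lower. Without the HC samples forebrain factors became 5 and cadherins 3, and without the BS samples lower oligodendrocyte markers became 6. Nr2e1, which was not called, turned from 2.04 to -0.88 (log2) without the BS samples. For each of these shifts the cause was not tested.

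With 1 sample left out at a time, the counts ranged from 152 to 374 (higher), 106 to 381 (lower), 91 to 221 and 42 to 116 (higher and lower than each region), 49 to 74 (read in the OB alone), 240 to 361 (not read in the OB), 3 to 11 (forebrain factors), 5 to 11 (ensheathing glia), 4 to 12 (interneuron), 2 to 6 (neuroblast), 4 to 5 (sensory neuron), 2 to 8 (cadherins), 4 to 9 (collagens and laminins), 2 to 5 (glutamate receptors), 3 to 5 (chloride channels), 2 to 5 (Wnt), 1 to 9 and 2 to 6 (potassium channels higher and lower), 1 to 10 (oligodendrocyte) and 10 to 17 (choroid plexus). The counts of genes read or not read in the OB cannot fall when a sample is left out. Their ranges therefore lie above the counts of 45 and 225 from all samples. With a replicate block the counts were 283 higher and 211 lower, cadherins became 4 and lower oligodendrocyte markers 5. Between samples with the same replicate number, 3 of 15 correlations of their deviations exceeded 0.1 (median 0.0229, range -0.16 to 0.25). With different numbers, 5 of 30 did (median -0.00253, range -0.224 to 0.183). Deviations from means of 2 or 3 samples are tied to each other, so these values cannot show whether same-numbered samples share mice. edgeR gave 353 higher and 255 lower with TMM factors and 344 and 258 with RLE factors. At 3 reads a value lay between 1.10 and 6.31, so that lower levels were not distinguishable from absence.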
